A study of Mus musculus with 9 samples.

Results

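Liver plasma protein and metabolism genes were followed in medullary thymic epithelial cells (mTEC), as a group of 36 mouse genes named for their products. The list was drawn up with earlier results of these data known, so it was not blind to them. The 36 genes were 8 carriers, 7 apolipoproteins, 9 coagulation factors, 7 acute phase proteins and protease inhibitors, and 5 metabolic enzymes, out of 23003 genes with a symbol in the tables. Each gene was read through its RefSeq entry with the highest normalised counts summed over the Aire pair described below. A total of 5 members (Apoc1, Fga, Itih4, Kng1 and Rbp4) had more than 1 entry, and all 36 were present in every table.

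In the body these genes belong to the hepatocyte, which makes and secretes most of the proteins of blood plasma and breaks down amino acids. mTEC transcribe many such tissue-restricted genes and display the products to developing T cells, so that cells reactive to them are removed or become regulatory. The nuclear protein Aire drives a large part of this expression in the mature mTEC that carry high MHC class II, called mTEChi. Cells with low MHC class II, called mTEClo, include their immature precursors. In the liver itself, this set is switched on by factors such as the FOXA proteins and the C/EBP proteins.

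The 9 libraries were each the only library of their group, so a fold describes 2 libraries and its interval covers counting error only. One pair set mTEChi of Aire-KO mice beside mTEChi of wild-type (WT) mice, each sorted from 4 pooled thymi, and a second pair set mTEChi beside mTEClo of the same WT mice, also from 4 pooled thymi. The last 5 libraries came from pooled WT thymi, as mTEChi exposed to 1 uM actinomycin D, a drug that stops transcription, over 0, 1.5, 3, 6 and 12 h. All mice were 4 weeks old and on the B6 background, and cells were sorted as CD45-negative, Ly51-negative and MHC class II high or low. The labels give the knockout as Aire-/-, carried by the whole animal. Both pairs and the 0 h library were made from polyadenylated RNA with a TruSeq kit and read from both ends, whereas the 4 treated libraries were made with SMARTer amplification and Nextera and read from 1 end. Kit and treatment therefore cannot be told apart against 0 h.

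Reads summed over entries ran from 74161592 to 195444567 in the 5 untreated libraries. In the treated ones they ran from 1746825 to 21124165 and fell with time. These sums stand for depth here and are the totals to which reads are scaled below. Isoforms share reads, so some reads count more than once. The sums cover 30794 entries in the pairs and 25537 in the actinomycin D course. A level of 3 reads, used as the floor for a gene with none, was 0.0210 CPM (a library's reads scaled to the same total) in the library labelled Aire-KO and 1.72 CPM at 12 h. Aire itself was at 661 CPM in the library labelled Aire-KO, against 259 CPM in its WT partner, which goes against the label. Entries add the reads of all exons, so transcripts of a disrupted gene count too and Aire cannot test the label here. Since the pair's columns are headed only A and B, each direction below rests on the study's own code, read as placing Aire-KO in A. Of 10 markers of mTEC identity, 0 were at least 3-fold lower or higher in the Aire pair, beside 21.1% and 2.03% of all entries. Within 2-fold were 9 of the 10, beside 65.5% of all entries. The remaining marker was Aire, 2.99-fold higher in the library labelled Aire-KO. The 9 markers of mTEChi maturation, with Aire again among them, had a median fold of 1.44 there, and 7 were within 2-fold.

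Other cell types also differed within the pairs, and in bulk RNA fewer cells of a type and less RNA per cell cannot be told apart. Dendritic cell and macrophage markers summed to 386 CPM in the library labelled Aire-KO and 737 CPM in WT, with 7 of 12 at least 3-fold lower. Lyz2 alone gave 336 and 574 CPM of these sums and was within 2-fold (0.687), so the sums mostly follow Lyz2. Endothelial markers summed to 26.7 CPM against 78.1 CPM, with 5 of 8 at least 3-fold lower, and fibroblast markers to 219 CPM against 152 CPM, with 1 of 9 at least 3-fold higher. Thymocyte markers summed to 30.4 CPM against 51.8 CPM. Of all entries in that pair, 21.1% were at least 3-fold lower and 2.03% at least 3-fold higher. In the second pair, dendritic cell and macrophage markers summed to 628 CPM in mTEChi and 92.4 CPM in mTEClo. Lyz2 gave 464 and 50.7 CPM of these sums. Fibroblast markers (171 against 980 CPM) and endothelial markers (57.2 against 337 CPM) stood higher in mTEClo. The part of these cells in the results below was not tested.

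Sequence upstream of the start site is shown for the 3 fibrinogen chains and albumin, which were nearly lost from the library labelled Aire-KO, and for 3 members that were within 2-fold there (F2, Itih1 and Crp). Each line gives the 120 bases before the start, 5′ to 3′ on the gene's own strand, from RefSeq on build GRCm38.p6. Capitals mark GTTAAT, a short motif searched on either strand, or TATAAA, the TATA box.
Fgg, chr3:83007604-83007723, plus strand: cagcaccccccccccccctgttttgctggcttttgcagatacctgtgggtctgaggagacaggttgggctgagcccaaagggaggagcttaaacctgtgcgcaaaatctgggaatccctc
Fga, chr3:83026033-83026152, plus strand: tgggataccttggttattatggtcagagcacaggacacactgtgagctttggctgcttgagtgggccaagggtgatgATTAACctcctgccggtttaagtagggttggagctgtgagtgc
Fgb, chr3:83049864-83049983, minus strand: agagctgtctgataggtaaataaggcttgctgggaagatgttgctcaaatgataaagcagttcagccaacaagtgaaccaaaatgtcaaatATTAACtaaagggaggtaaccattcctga
Alb, chr5:90460750-90460869, plus strand: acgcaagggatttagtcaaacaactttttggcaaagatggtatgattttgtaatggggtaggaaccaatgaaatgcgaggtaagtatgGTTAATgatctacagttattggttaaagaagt
F2, chr2:91636458-91636577, minus strand: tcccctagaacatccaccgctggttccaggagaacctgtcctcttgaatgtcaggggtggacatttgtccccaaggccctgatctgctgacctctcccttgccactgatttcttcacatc
Itih1, chr14:30943290-30943409, minus strand: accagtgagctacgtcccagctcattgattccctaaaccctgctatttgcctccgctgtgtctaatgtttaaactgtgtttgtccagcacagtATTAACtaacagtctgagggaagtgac
Crp, chr1:172697936-172698055, plus strand: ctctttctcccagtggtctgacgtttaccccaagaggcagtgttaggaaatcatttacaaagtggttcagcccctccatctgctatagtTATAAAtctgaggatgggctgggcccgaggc

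GTTAAT, on either strand, began 43, 29, 32 and 27 bases before the start of Fga, Fgb, Alb and Itih1, and the TATA box 31 bases before that of Crp. Of these, Itih1 and Crp were among the members within 2-fold, so a match was no mark of the members that were lower. Over the 250 bases before the start, GTTAAT was found on either strand in 6 of the 27 members with a promoter in the table (22.2%) and in 6.43% of all 32851 promoters there. It stood in 4 of 18 members at least 3-fold lower in the library labelled Aire-KO and in 2 of 7 within 2-fold. The TATA box was found in 5 of 27 members and 12.4% of all promoters, and no printed stretch held both motifs. Member promoters were poor in the CG dinucleotide, with a median of 3 in these 250 bases (range 1 to 9) against 6 over all promoters. These are matches of letters and not sites shown to be bound.

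In untreated WT mTEChi every member was read, at a median of 7.50 to 11.2 CPM per library. The 36 genes together took 0.136%, 0.0851% and 0.102% of the reads in Aire-pair WT mTEChi, the mTEChi library of the second pair and the 0 h library. Apoa4, an apolipoprotein of intestine and liver, was the highest in each of the 3, at 645, 300 and 372 CPM. Per kilobase of exon, the level was highest for Apoa4, with a median of 223 CPM per kb over the 3 libraries, and it was followed by Apoa1 at 86.1, Trf at 77.9 and Hamp at 73.9 CPM per kb. Apoa1 is the main protein of high-density lipoprotein, Trf carries iron and Hamp encodes hepcidin, the hormone that limits iron uptake. Lowest were F9 and Apcs, at 0.144 and 0.222 CPM per kb. Albumin, the most abundant plasma protein, was at 8.17 CPM per kb.

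The 3 untreated WT mTEChi libraries came from different experiments and did not agree equally well for all members. In CPM, Ambp, Rbp4 and Crp differed by at most 1.06-fold, 1.11-fold and 1.11-fold among the 3. The totals behind CPM cover more entries in the pair libraries than at 0 h. After TMM scaling over common entries, these genes were further apart in Aire-pair, second-pair and 0 h mTEChi. Ambp was then at 9.95, 9.02 and 8.48 CPM, Rbp4 at 6.07, 5.41 and 4.70 CPM and Crp at 21.0, 20.1 and 16.2 CPM. Apoc3, Ttr and Hamp differed most, by 3.46-fold, 3.33-fold and 3.08-fold, and in each case Aire-pair WT mTEChi was the highest. Folds of these 3 genes within that pair thus start from a WT library above the others. The median SD over the members was 0.49 on the log2 CPM scale.

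**Figure D1:**
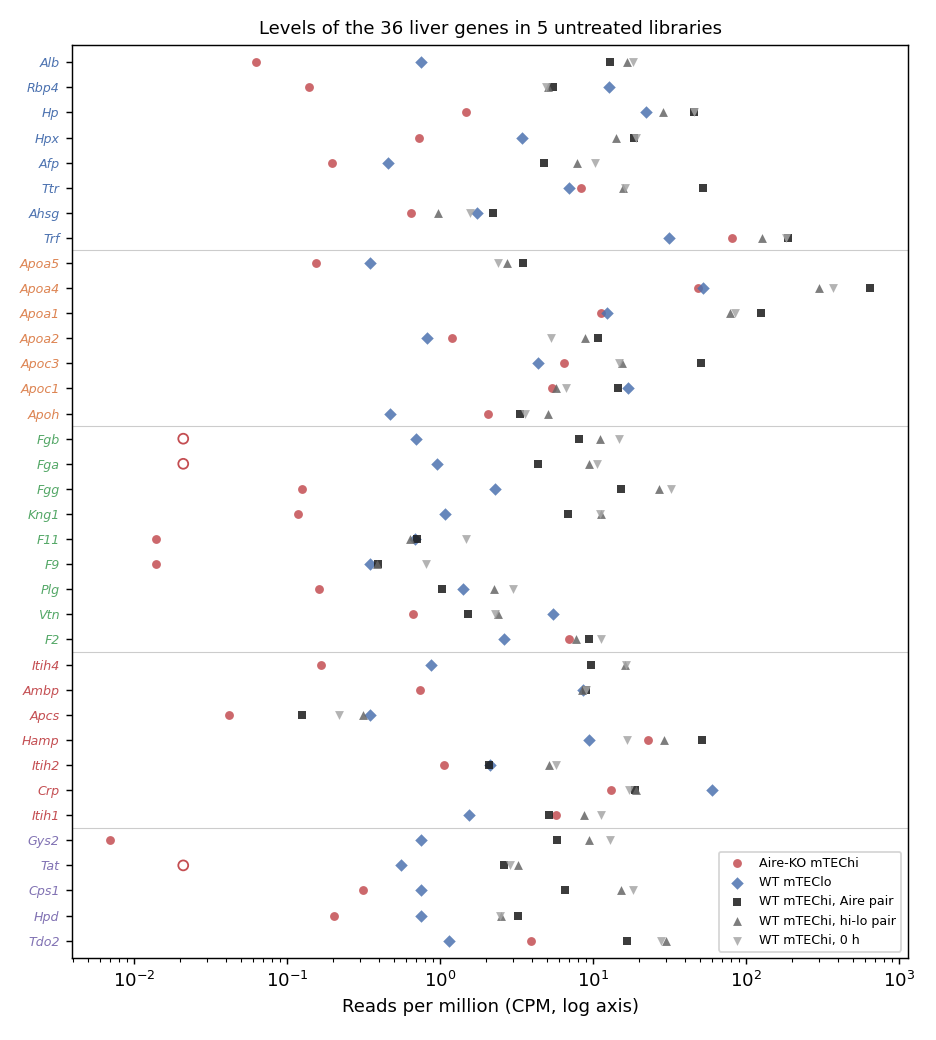
Levels of the 36 genes in CPM (log axis) in the library labelled Aire-KO (circles), mTEClo (diamonds) and 3 WT mTEChi libraries (black and grey), 1 point per library. Genes are coloured by role (carriers, apolipoproteins, coagulation factors, acute phase proteins and inhibitors, enzymes, from top to bottom) and ordered within each by the fold of the Aire pair, and open circles mark 0 reads drawn at the 3-read floor. Circles lie left of the 3 WT points for most genes, and diamonds lie right of them for Rbp4, Apoc1, Vtn, Apcs and Crp.

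The first comparison asked how much of this expression was missing without Aire. Of the 36 members, 25 were at least 3-fold lower in the library labelled Aire-KO than in its WT partner, 3 lay between 2-fold and 3-fold lower (Ahsg, Apcs and Apoc1), 8 were within 2-fold and 0 were at least 3-fold higher. Among the 26761 entries whose normalised counts summed to 10 or more over both libraries, 21.1% were at least 3-fold lower, 65.5% were within 2-fold and 2.03% were at least 3-fold higher. The members' median fold was -3.43 on the log2 scale, or 10.8-fold lower, beside a median of -0.03 over all entries. Scaled to equal totals, the same median was -3.66 and that of all entries -0.26, with 26 members at least 3-fold lower. Together the 36 genes took 0.0225% of the library labelled Aire-KO and 0.136% of WT reads.

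Coagulation factors had the lowest median of the 5 roles, 43.3-fold lower, with 7 of 9 past the 3-fold limit. That median is the fold of F11, which rests on 2 reads in the library labelled Aire-KO (interval 11.6 to 364). The 3 chains of fibrinogen, the precursor of the clot, are neighbours on chromosome 3 with no annotated gene between them (build mm9, Fgg 82811781 to 82818975, Fga 82830075 to 82838036 and Fgb 82846169 to 82853725). Fga had 0 reads in the library labelled Aire-KO and 453 reads in WT. With 0 taken as 3 reads it was 177-fold lower, and the exact 95% interval begins at 143-fold. Fgb had 0 reads against 844 and was 329-fold lower on the same floor, with an interval from 267-fold. Fgg had 18 reads against 1595 and was 104-fold lower, with a 95% interval of 65.3 to 175. All 3 chains were thus close to absent from a library with 143001134 reads summed over entries. Their levels in the other WT mTEChi libraries were higher still than in this WT library. These were 9.45 and 10.6 CPM for Fga, 11.2 and 14.9 CPM for Fgb, and 27.0 and 32.6 CPM for Fgg.

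Among the other clotting genes, Kng1, the kininogen from which bradykinin is cut, had 17 reads in the library labelled Aire-KO and 720 in WT (49.5-fold lower, 30.7 to 85.5). Its reads are uncertain because the mouse genome holds a near copy of the gene, Kng2. F11 and F9, proteases of the intrinsic pathway, had 2 reads against 74 and 2 against 41, for ratios of 0.0231 (0.0027 to 0.0865) and 0.0417 (0.0049 to 0.161). Plasminogen (Plg), which dissolves clots, had 23 against 108 reads and was 5.49-fold lower (3.48 to 9.03). The group had 2 exceptions. Vitronectin (Vtn) had 95 against 159 reads, a fold of 0.511 (0.392 to 0.663), and prothrombin (F2) had 992 against 983 reads, a fold of 0.863 (0.789 to 0.944).

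Carriers were a median 21.1-fold lower, with 6 of 8 past the limit. Albumin (chromosome 5, 90889915 to 90905629, mm9) had 9 reads in the library labelled Aire-KO and 1355 in WT, and was 176-fold lower (92.4 to 386). Its neighbour Afp, the fetal counterpart of albumin, had 28 against 497 reads and was 20.8-fold lower (14.2 to 31.6). Rbp4, the retinol carrier, was 33.4-fold lower, Hp, which binds free hemoglobin, 26.5-fold and Hpx, which binds heme, 21.4-fold. Ttr, the carrier of thyroxine and of Rbp4, was 5.37-fold lower at 8.34 CPM against 52.5 CPM. That WT level was itself above the 15.8 and 16.2 CPM of the other WT mTEChi libraries, against which Ttr was 1.59-fold and 1.46-fold lower after TMM scaling. Ahsg, an inhibitor of calcification, was 2.95-fold lower, just outside the limit. Against the other WT libraries Ahsg was only 1.27-fold and 1.82-fold lower after TMM scaling. Trf was 1.98-fold lower at 81.3 against 189 CPM.

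All 5 enzymes of the liver were past the limit, at a median 17.9-fold lower. Gys2, the glycogen synthase of liver, had 1 read in the library labelled Aire-KO and 603 in WT, a ratio of 0.00142 with an interval of 3.59e-05 to 0.00793. Tat, which begins the breakdown of tyrosine, had 0 reads against 273. With 0 taken as 3 reads it was 106-fold lower, with an interval from 85.9-fold. Cps1, the entry step of the urea cycle, had 45 against 689 reads (17.9-fold lower, 13.2 to 24.8). Hpd, the next enzyme of tyrosine breakdown after Tat, had 29 against 338 (13.6-fold lower, 9.32 to 20.7). Tdo2, which opens the ring of tryptophan, kept the most of the 5, with 566 against 1749 reads and a 3.61-fold lower level (3.28 to 3.98).

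Apolipoproteins were a median 7.63-fold lower, with 5 of 7 past the limit. A set of 4 forms a cluster on chromosome 9 (mm9, from Apoa1 at 46036663 to the end of Apoa5 at 46080002) with no annotated gene between neighbours. The 4 were lower to different degrees, Apoa5 by 19.2-fold (12.5 to 31.1), Apoa4 by 11.3-fold (11.03 to 11.59), Apoa1 by 9.49-fold (9.01 to 9.996) and Apoc3 by 6.68-fold (6.23 to 7.17). These sizes depended on the WT library. Against the mTEChi library of the second pair and the 0 h library, after TMM scaling, Apoa4 was 5.18-fold and 5.75-fold lower, Apoa1 5.82-fold and 5.65-fold, and Apoc3 1.995-fold and 1.70-fold, so that Apoc3 was not past the limit and Apoa4 and Apoa1 had no fixed order. Apoa4 still had 6956 reads in the library labelled Aire-KO, or 48.6 CPM, beside 645 CPM in WT. Outside the cluster, Apoa2 was 7.63-fold lower. Apoc1 was 2.33-fold lower, and Apoh, which binds phospholipid, had 296 against 346 reads (1.37-fold lower, 1.17 to 1.60).

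Acute phase proteins and inhibitors had the median nearest to 1 of the 5 roles, 1.90-fold lower, with 2 of 7 past the limit. Those 2 were Itih4, with 24 reads against 1017 (49.5-fold lower, 33.1 to 77.7), and Ambp, the precursor of bikunin, with 106 against 937 (10.3-fold lower, 8.45 to 12.8). Itih1 lies in the same cluster as Itih4 on chromosome 14 and is a heavy chain of the same inhibitor family. It had 816 reads in the library labelled Aire-KO and 535 in WT, a fold of 1.305 (1.17 to 1.46). Its direction turned against the other WT libraries, with folds of 0.779 and 0.675 after TMM scaling, while Itih4 was 80.8-fold and 74.2-fold lower there. Itih2 had a fold of 0.598 (0.483 to 0.738), but was 4.06-fold and 4.01-fold lower against the other WT libraries. C-reactive protein (Crp) had 13.1 against 19.0 CPM and a fold of 0.811 (0.761 to 0.865). Hamp had a fold of 0.525 (0.503 to 0.549), in reads that cannot be split from its copy Hamp2 with certainty. The pentraxin Apcs, with 6 reads against 13, was too thinly read for its fold of 0.395 (0.123 to 1.11) to be told from 1.

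**Figure D2:**
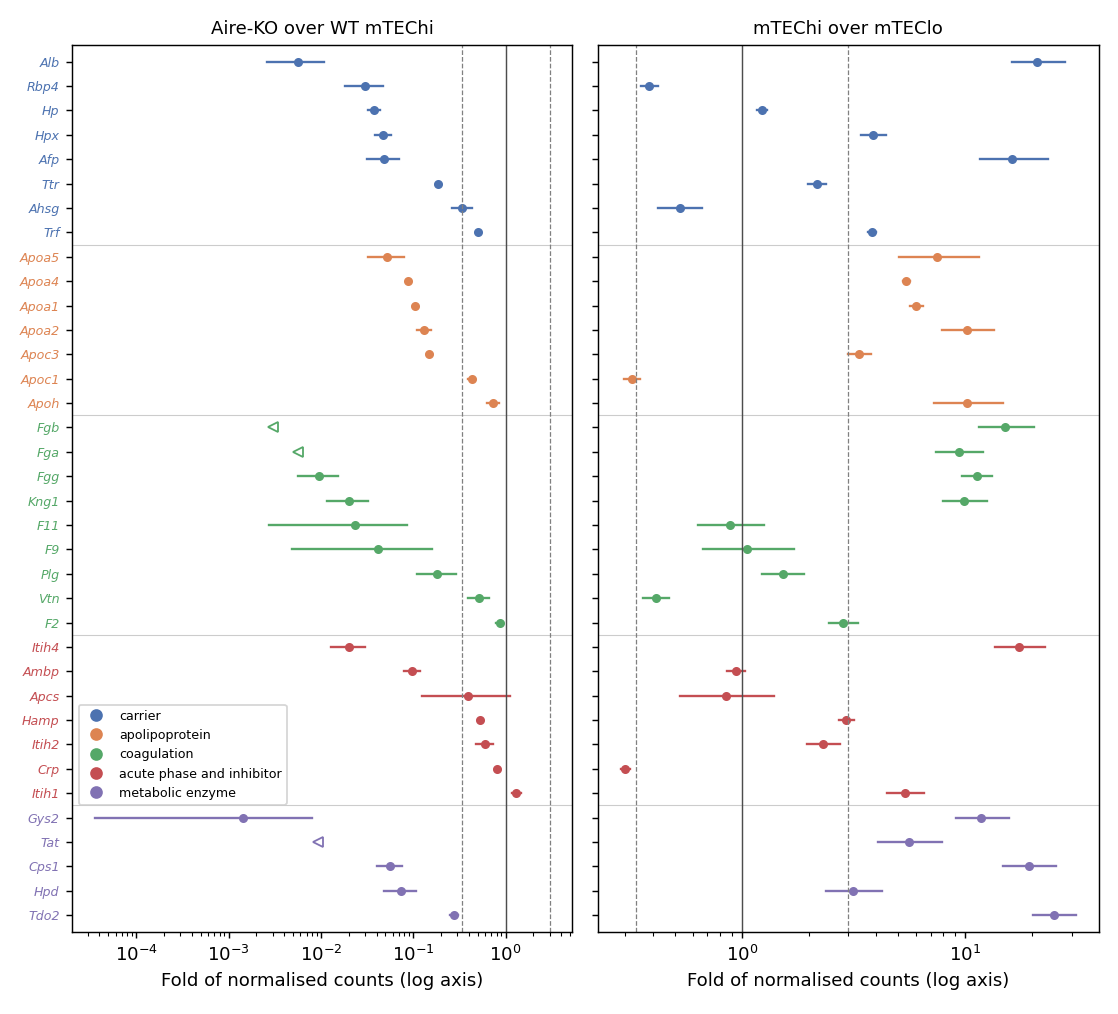
Folds of normalised counts (log axes) of the 36 genes, for the library labelled Aire-KO over WT mTEChi (left) and for mTEChi over mTEClo (right), with exact 95% intervals of counting error as bars and open triangles where the library labelled Aire-KO had 0 reads. Dashed lines mark 3-fold. In the left panel 25 genes lie left of the lower limit and 0 right of the upper one, and in the right panel 21 lie right of the upper limit and 2 left of the lower one.

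All 36 genes were set against the 3 untreated WT mTEChi libraries, to place the difference beside a spread between libraries. With the edgeR quasi-likelihood test and Benjamini-Hochberg adjustment over 23916 entries, 20 of the 36 were called lower in the library labelled Aire-KO at an adjusted p under 0.05 and 0 higher. Over all entries, 8.64% were called lower and 0.0878% higher. The lone library was assumed to vary like the WT ones, and since the 3 came from different experiments the spread is partly that between experiments. Albumin was lower by 7.68 ± 0.78 on the log2 scale (SE, adjusted p = 0.0088 in edgeR), and the 3 fibrinogen chains, Tat and Gys2 had the same adjusted p. The fitted values of Fga, Fgb and Tat rest on a prior count, since these had 0 reads, and are not quoted.

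The calls took in all the enzymes except Tdo2, which missed narrowly (-2.36 ± 0.60, SE, edgeR adjusted p = 0.055). They took in 5 of 8 carriers (Alb, Afp, Rbp4, Hp and Hpx), 3 of 7 apolipoproteins (Apoa1, Apoa4 and Apoa5), 6 of 9 coagulation factors and 2 of 7 acute phase proteins and inhibitors (Itih4 and Ambp). Plg (-3.38 ± 0.85, edgeR adjusted p = 0.052) and Apoa2 (-2.53 ± 0.72, edgeR adjusted p = 0.075) also lay close to the threshold. Ttr and Apoc3 were past the 3-fold limit within the pair but had adjusted p of 0.44 and 0.34 in edgeR, both being high in Aire-pair WT mTEChi. The values nearest to 0 were those of F2 (-0.16 ± 0.49), Crp (-0.21 ± 0.48), Itih1 (-0.25 ± 0.56) and Hamp (-0.25 ± 0.72).

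By level alone, 31 of the 36 were lower in the library labelled Aire-KO than in each of the 3 WT libraries after TMM scaling, beside 36% of all entries, and 0 were above all 3, beside 24.1%. The 5 that overlapped were Apoc1, Crp, F2, Hamp and Itih1. Against the mTEChi library of the second pair 26 members were at least 3-fold lower, and against the 0 h library 25 were, where 21.2% and 22.6% of all entries were. With the same scaling, 26 were at least 3-fold lower than Aire-pair WT mTEChi, beside 21.7% of all entries. The sizes of single folds moved more than these counts, and for Apoc1, Crp, F2, Hamp and Itih1 the direction turned with the WT library chosen.

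**Figure D3:**
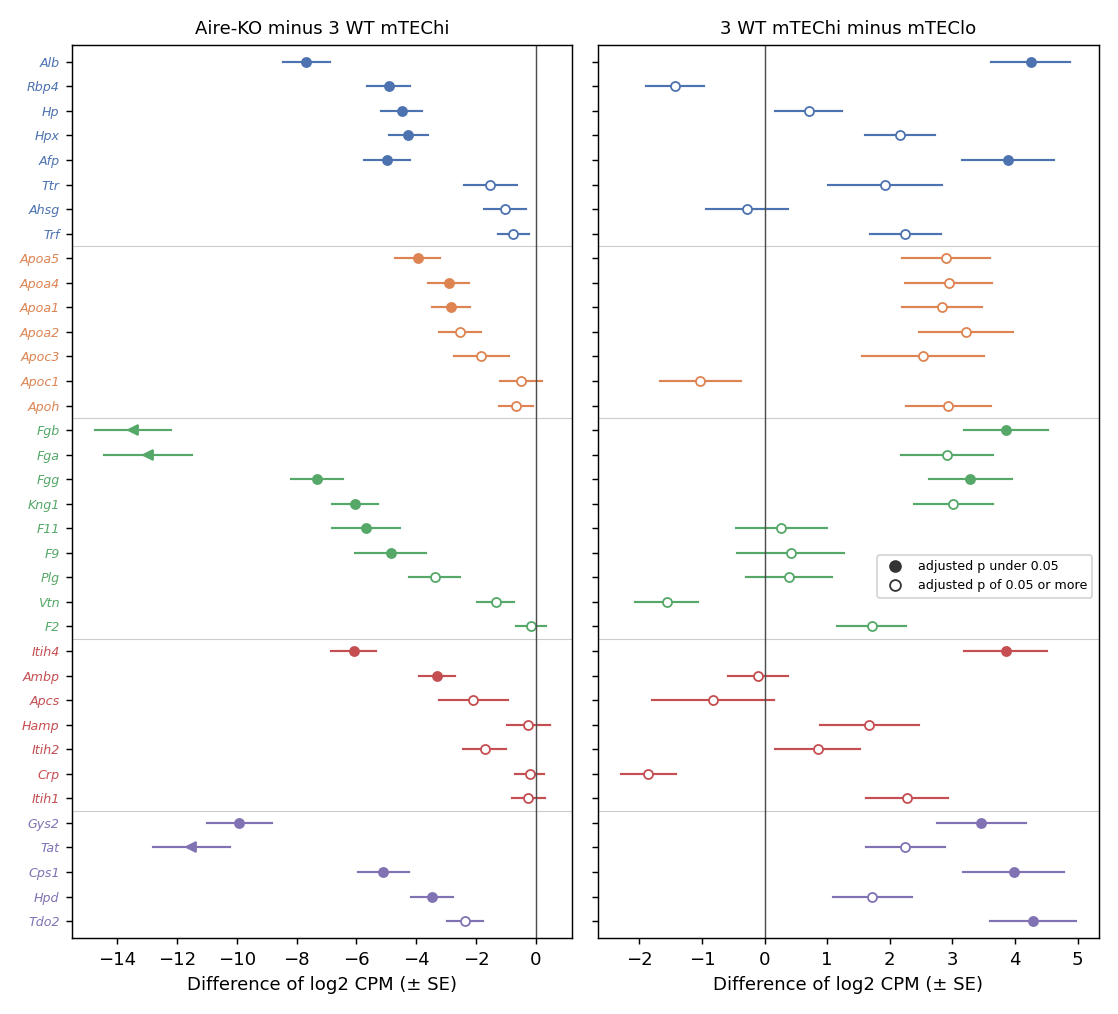
Differences of log2 CPM from edgeR, with standard errors derived from its F statistic. The left panel shows the library labelled Aire-KO minus 3 untreated WT mTEChi libraries, and the right panel the same 3 minus mTEClo. Filled symbols have an adjusted p under 0.05, open ones do not, and triangles are genes with 0 reads in the library labelled Aire-KO, whose values depend on a prior count. The left panel has 20 filled symbols, all below 0, and the right panel 8, all above 0.

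The second comparison asked whether these genes belong to the mature stage. Of the 36, 21 were at least 3-fold higher in mTEChi than in mTEClo, 2 were at least 3-fold lower and 7 were within 2-fold, whereas 11.8%, 12.8% and 61.1% of all 29212 entries were. The members' median was 1.95 on the log2 scale, a 3.85-fold higher level in mTEChi, beside 0.01 over all entries. They took 0.0851% of the reads in mTEChi and 0.0270% in mTEClo, where Crp and not Apoa4 was the highest member.

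All 5 enzymes were higher in mTEChi, by a median of 11.8-fold. Tdo2 had the largest fold of the 36, with 5884 reads in mTEChi and 85 in mTEClo (25-fold, 20.2 to 31.3), and among the enzymes Cps1 came next with 2997 against 56 (19.3-fold, 14.8 to 25.6). Of the carriers, Alb had 3262 reads in mTEChi and 56 in mTEClo (21.0-fold, 16.2 to 27.9) and Afp 1534 against 34 (16.3-fold, 11.6 to 23.6). Fgb was 15.2-fold, Fgg 11.3-fold and Fga 9.39-fold higher. Of 7 apolipoproteins, 6 were past the limit, from Apoc3 at 3.36-fold to Apoa2 and Apoh at 10.2-fold each, and Apoa4 was at 300 against 52.3 CPM. Itih4 was 17.5-fold higher (13.7 to 22.7) and Itih1 5.39-fold (4.46 to 6.57).

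A smaller group went the other way. Crp had 19.0 CPM in mTEChi and 60.2 CPM in mTEClo, a fold of 0.2998 (0.287 to 0.313), and Apoc1 had 5.72 against 17.0 CPM, a fold of 0.321 (0.296 to 0.348). Rbp4 and Vtn stood at 0.384 (0.351 to 0.421) and 0.413 (0.3604 to 0.472). Apoc1 is also made by macrophages, and Vtn and Rbp4 by cells outside the liver. The part of such cells in these levels was not tested. Dendritic cell and macrophage markers summed to 628 CPM in mTEChi and 92.4 CPM in mTEClo, with 464 and 50.7 CPM from Lyz2. mTEClo was above all 3 untreated WT mTEChi libraries for Crp, Apoc1, Rbp4, Vtn and Apcs, or 5 of 36 members, beside 31.7% of all entries. It was below all 3 for 26 of 36, and 31.7% of all entries were below too.

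Ambp, Hp, F9, F11, Plg, Ahsg and Apcs were within 2-fold between mTEChi and mTEClo. Ambp had 8.51 CPM in mTEChi and 8.59 CPM in mTEClo, and 0.741 CPM in the library labelled Aire-KO. F11 had 0.640 CPM in mTEChi and 0.688 CPM in mTEClo, and 0.0140 CPM in the library labelled Aire-KO. Hp was at 28.7, 22.2 and 1.48 CPM in these 3 libraries and Rbp4 at 5.10, 12.6 and 0.140 CPM. These 4 genes were thus within 2-fold between mTEChi and mTEClo, or higher in mTEClo for Rbp4, and lowest in the library labelled Aire-KO. Aire itself was at 444 CPM in mTEChi and 14.4 CPM in mTEClo.

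In edgeR, with all 3 untreated WT mTEChi libraries set against mTEClo, 8 of the 36 were called higher in mTEChi at an adjusted p under 0.05 (Alb, Afp, Fgb, Fgg, Itih4, Cps1, Gys2 and Tdo2) and 0 lower, while 1.92% of 24687 entries were called higher and 1.45% lower. Their values ran from 3.28 ± 0.67 for Fgg (edgeR adjusted p = 0.045) to 4.28 ± 0.69 for Tdo2 (edgeR adjusted p = 0.037). Crp, at -1.86 ± 0.44, missed the threshold (edgeR adjusted p = 0.067). Shares of all entries are not given for the counts that follow, so none of them is read as a result about the members. The count of members called rests on the choice of libraries and tool. It was 0 without the mTEChi library of the second pair, 22 without the 0 h library and 22 by DESeq2, with 21 higher and 1 lower in each of the last 2. In all 4 fits 24 to 27 members had an unadjusted p under 0.05.

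The 2 pairs share no library, so their classes can be laid side by side. Of the 25 members at least 3-fold lower in the library labelled Aire-KO, 18 were at least 3-fold higher in mTEChi than in mTEClo, which is 72% of the 25 and 85.7% of the 21 higher in mTEChi. Over all entries tested in both pairs, 27.5% of those at least 3-fold lower in the library labelled Aire-KO were at least 3-fold higher in mTEChi. The 7 that were lower without being 3-fold higher were Ambp, F11, F9, Hp, Plg, Rbp4 and Ttr. Of the 8 members within 2-fold in the Aire pair, Trf, Apoh and Itih1 were 3.83-fold, 10.2-fold and 5.39-fold higher in mTEChi. Over all entries within 2-fold in the Aire pair, 6.65% were at least 3-fold higher in mTEChi. Trf lay near the 2-fold limit, at 1.98-fold lower, or 2.04-fold after TMM scaling. Against the mTEChi library of the second pair, Apoh was 2.05-fold lower.

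The third comparison followed the transcripts after transcription was stopped. Levels are shares of the RNA still present, so a gene rises when the rest decays faster. The members' median difference of log2 CPM from 0 h over 1.5, 3, 6 and 12 h was 0.10, -0.08, 0.45 and 0.60, while that of all entries was -0.13, -0.18, -0.54 and -0.60. Above their 0 h level were 23, 15, 21 and 25 of the 36, beside 37.4%, 40.4%, 34.9% and 33.2% of all entries. All entries at least 3-fold lower in the library labelled Aire-KO, 4857 with values here, had medians of -0.12, -0.36, -3.16 and -1.40, the last 2 being set in part by entries with 0 reads. With at least 100 reads over the 5 libraries required, the values at 6 and 12 h were -0.67 and -0.55 for these entries, and 0.51 and 0.61 for the members. The treated libraries differed from 0 h in kit as well as in drug.

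Among the abundant members, Apoa4 and Alb moved least over the course and others moved further. Apoa4 was at 372, 385, 346, 427 and 403 CPM at 0, 1.5, 3, 6 and 12 h, and Alb at 18.4, 19.1, 24.7, 24.2 and 21.8 CPM. Apoa1 had 84.8, 117, 105, 167 and 193 CPM. Fgb stood at 14.9, 20.2, 26.7, 36.7 and 27.5 CPM and Fgg at 32.6, 31.2, 32.5, 108 and 76.7 CPM. The shares of Apoa1, Fgb and Fgg were thus higher at 6 and 12 h than at 0 h.

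Other members stood lower than at 0 h at 1 or more times. Ttr had 16.2, 20.7, 15.2, 12.2 and 5.72 CPM at 0, 1.5, 3, 6 and 12 h, the last from 10 reads. Gys2 was at 0.212 of its 0 h level at 6 h and Cps1 at 0.386 at 3 h, and both were above it at 12 h. Afp was at 0.294 of its 0 h level at 3 h and 3.44-fold above it at 12 h. Crp was below 0 h at every time. It had 17.1, 10.5, 2.37, 7.17 and 0 CPM over the course, the last where 29.8 reads would have stood for the 0 h level. Several low members were also lost. Ahsg, Apoa5, F9, F11, Apcs and Hpd ended at 0 reads at both 6 and 12 h, although at 12 h fewer than 5 reads would have stood for the 0 h level of each. Rbp4 had 0 reads at 3 h, where 69.1 stood for its 0 h level, and 87 reads again at 6 h. Plg had 0 at 6 h, where 33.7 stood for its 0 h level, and 15 at 12 h. A count of 0 at 1 time was thus followed by reads at a later time for both genes. Apoa2 and Apoh were 7.23-fold and 7.10-fold above 0 h at 6 h but 1.82-fold and 2.54-fold above it at 12 h.

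**Figure D4:**
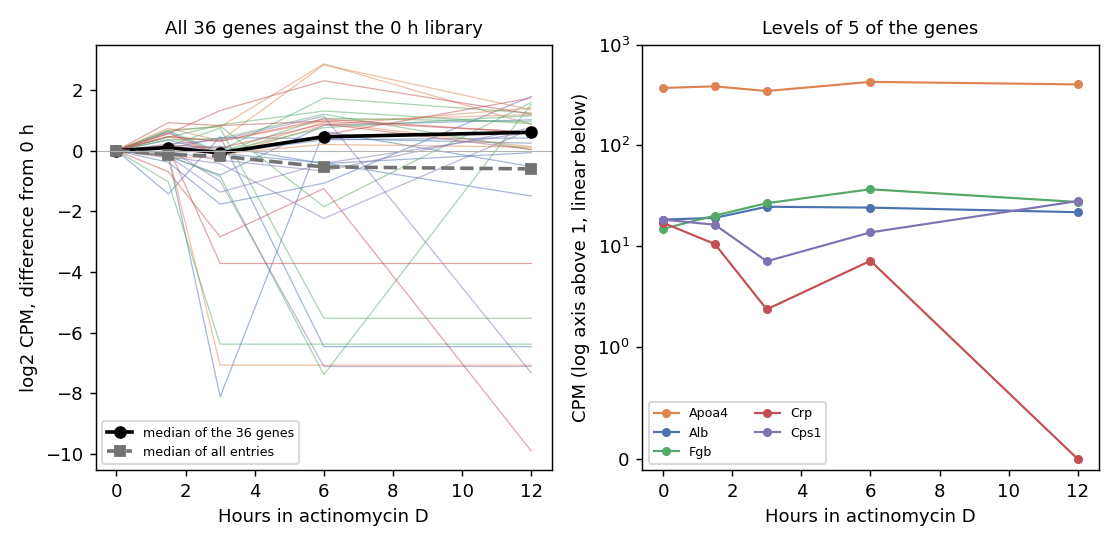
Course in actinomycin D. Left, difference of log2 CPM from 0 h for each of the 36 genes (thin lines, coloured by role), their median (circles) and the median of all entries (squares), against hours, with 1 library per time, genes at 0 reads resting on an added 0.5 reads. Right, levels in CPM of Apoa4, Alb, Fgb, Crp and Cps1 on an axis that is logarithmic above 1. The medians part after 3 h and end at 0.60 and -0.60, and Crp ends at 0.

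No slope over the 4 treated times was called. Among 32 members tested and 20652 entries in all, edgeR called 0 (0% of entries), and 3 members and 1896 entries had an unadjusted p under 0.05. Those members were Afp (0.25 ± 0.09 log2 per h), Itih4 (0.14 ± 0.06) and Hpx (0.15 ± 0.07), named after their values were seen, with edgeR adjusted p of 0.46, 0.49 and 0.54. DESeq2 called 0 members, and over the 3836 entries it kept it called 147 with a falling slope and 268 with a rising one. Leaving out the 6 h library gave 5 of 32 members called (1 falling, 4 rising), with 1156 falling and 718 rising over 20452 entries. Leaving out the 12 h library gave 2 rising members, with 518 falling and 87 rising over 20338 entries.

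Genes of both further liver lists were lower as well. Of 49 other liver plasma proteins, 34 were at least 3-fold lower in the library labelled Aire-KO, with a median 6.43-fold lower, and edgeR against 3 WT libraries called 18 lower and 0 higher, beside 21.1% and 8.64% of all entries. Saa1, an acute phase apolipoprotein and the most abundant of them, had 900 reads in the library labelled Aire-KO and 32536 in WT, a fold of 0.0237 (0.0221 to 0.0253). Igfals, the stabilising subunit of circulating insulin-like growth factor complexes, was within 2-fold at 1.25 (1.21 to 1.28). Of 33 other liver enzymes, 18 were at least 3-fold lower, with a median 3.83-fold lower, and edgeR called 9 of 34 lower, beside the same background. Hal, which breaks down histidine, was within 2-fold at 1.34 (1.31 to 1.37). Between mTEChi and mTEClo, 15 of the 49 plasma proteins and 16 of 34 enzymes were at least 3-fold higher in mTEChi, against 21 of the 36 members and 11.8% of all entries.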

How the data were processed

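RNA-seq of 9 sorted mTEC libraries was used, 1 per group. As the methods and the submitters' processing notes state, the authors dropped reads failing the CASAVA filter, aligned the rest to mm9 with Bowtie 1.0.0 and counted with bedtools those inside RefSeq exons, without strand, so isoforms of a gene share reads. Paired reads had been trimmed and each end counted. The deposited actinomycin D files hold read counts per entry. The deposited pair tables hold a signal, namely counts after division by the authors' DESeq size factors (normalised counts). Deposited fold and p-value columns of the authors' DESeq comparisons were not used. The deposited lengths, in bases, served for CPM per kb.

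Dividing each pair library by its smallest step gave whole reads (100% whole within 0.1). There were 30794 entries in the pair tables and 25537 in the actinomycin D files, with 25401 common to them. Symbols and promoters came from RefSeq (GRCm38.p6), the promoter table holding 27 of the 36 members, and coordinates from gencode vM1 (mm9), which places 35 of them once. Kng1 and Hamp have near-identical copies.

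Folds within pairs used normalised counts, for entries with at least 10 summed over the pair. A count of 0 was taken as 3 reads. Intervals are exact 95% Clopper-Pearson intervals. PCR copies and the paired ends are not independent molecules, so intervals and floors cover counting error only. Replicates were the WT mTEChi libraries without drug (3), set against the lone Aire-KO or mTEClo library in edgeR 4.0.16 (quasi-likelihood, TMM, filterByExpr), with DESeq2 1.42.0 as an alternative, in R 4.3.3. Whether they come from separate mice is not given in the sources used here, so p-values measure the spread between these libraries. Slopes over hours used the 4 treated libraries. Each SE beside an edgeR value was derived, as the size of the log2 value over the square root of the test's F statistic. Log2 CPM of the actinomycin D course used total counts and 0.5 added reads scaled to library size, and took entries reaching 10 reads in total. The fit was tested on simulated data. Other steps ran in Python 3.11.15 with SciPy 1.17.1, pandas 2.3.3, matplotlib 3.10.9 and numpy 2.4.6.

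All 36 members are named, with Aire and up to 4 of each other list by highest mean. The members and lists were chosen with earlier results of these data known. Alternatives were other scalings, count minimums, pseudocounts, entries, tools and each library left out. Some genes of the other lists are not reported here.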

Additional observations from a re-analysis of the deposited data

How the results depend on the processing

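Member counts and medians within both pairs kept their direction and stayed within 1.5 times or 1 SD under every scaling, minimum and entry tried, as did the medians of the actinomycin D course. Against 3 WT mTEChi libraries, the members called lower in the library labelled Aire-KO numbered 18 to 23 over all alternatives, and 18 to 22 with a library left out. The members called between mTEChi and mTEClo numbered 8, but 22 with DESeq2 and 0 to 22 with a library left out. Slopes were called in 0 members, but in 0 to 5 with a time left out. Single log2 values that changed sign with a library left out ranged from -0.72 to 0.29 for Apoc1, -0.095 to 0.053 for F2, -0.32 to 0.030 for Crp and -0.60 to 0.48 for Hamp in the library labelled Aire-KO, each highest without Aire-pair WT mTEChi. F11 between mTEChi and mTEClo ranged from -0.13 (without 0 h) to 0.45, and the slope of Afp from -0.13 (without 12 h) to 0.42. The cause was not tested.

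Chosen after seeing the data, other WT libraries in place of the paired one gave 25 and 26 members lower in the library labelled Aire-KO, and 20 and 24 higher in mTEChi, and total counts in place of TMM gave 34 members below all 3 WT libraries in place of 31. No paired analysis was possible because each group had 1 library and the groups compared share fewer than 2 replicate numbers. Depth limits the 12 h library, where 1.72 CPM is 3 reads and 8 members had none.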

Other observations

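Transcription factors of the liver formed a further list, and their part in the results above was not tested. Of 18 such factors, 6 were at least 3-fold lower in the library labelled Aire-KO than in WT and 9 were within 2-fold, beside 21.1% and 65.5% of all entries, with a median 1.97-fold lower. Against the 3 untreated WT mTEChi libraries in edgeR, median log2 values were -2.74 for other liver plasma proteins and -1.75 for other liver enzymes. The median log2 value of the 18 factors was nearer to 0 in that fit, at -0.81. Among those with the highest mean, Cebpa had a fold of 0.664 (0.6497 to 0.678), Rxra 0.607 (0.586 to 0.628) and Cebpb 0.447 (0.420 to 0.475). Hnf4a, named after its values were seen, had 68 reads in the library labelled Aire-KO and 856 in WT, a fold of 0.0679 (0.0523 to 0.0870), and 1339 in mTEChi against 401 in mTEClo, a fold of 1.21 (1.08 to 1.35). Its level was 0.476 CPM in the library labelled Aire-KO. WT mTEChi had 8.21 CPM in the Aire pair, 6.85 CPM in the second pair and 2.57 CPM at 0 h. The fold of the Aire pair thus starts from the highest of these WT levels.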
